A study of Caenorhabditis elegans with 60 samples.

Results

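The 10 genes described here encode kinetochore and spindle proteins of *C. elegans*, out of 31106 genes in the deposited tables. They were taken by gene symbol, matched to the WormBase gene identifiers of the files: *hcp-3*, *knl-2*, *hcp-4*, *knl-1*, *knl-3*, *bub-1*, *hcp-1*, *air-2*, *klp-7* and *air-1*. No measured value entered this rule, though earlier results of these data were known when the genes were chosen. All 10 were found and all 10 passed the filter on low counts in every comparison below. A wider list of 81 further chromosome segregation genes was examined beside them, grouped into centromere and kinetochore, checkpoint, chromosomal passenger, centrosome, motor and midzone, condensin and cohesin, and anaphase genes.

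The kinetochore is the protein structure that links chromosomes to spindle microtubules. In *C. elegans* it forms along the whole length of each chromosome, because the chromosomes are holocentric. HCP-3 is the centromeric histone (CENP-A), KNL-2 is needed to load it, and HCP-4 (CENP-C) connects it to the outer kinetochore, where KNL-1 and KNL-3 belong to the network that binds microtubules. BUB-1 is a checkpoint kinase and HCP-1 is a CENP-F-like protein that depends on it. AIR-1 (Aurora A) acts at centrosomes, AIR-2 (Aurora B) is the kinase of the chromosomal passenger complex, and KLP-7 is a kinesin-13 that depolymerises microtubules. CSR-1 is an Argonaute protein that binds 22G-RNAs, small RNAs made by RNA-dependent RNA polymerases antisense to germline-expressed transcripts, and embryos that lack it fail in chromosome segregation.

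The study compared the small RNAs bound by the longer CSR-1 isoform, CSR-1A, which is made during spermatogenesis, with those bound by the shorter isoform, CSR-1B, which is made throughout the germline. Small RNA libraries were prepared from immunoprecipitates (IPs) and from lysate taken before the IP (input), and mRNA libraries from *csr-1a* mutants and wild type. All libraries came from whole worms grown at 20 °C, so each value averages over germline and soma. L4 larvae were collected 48 hours after hatching and 1-day-old adults 68 hours after hatching.

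The FLAG-tagged strains were WAGO-1 (*wago-1(cmp92[GFP::3xFLAG::wago-1])* with *mut-16(cmp41[mut-16::mCherry])*, L4), CSR-1A+B (*csr-1b(cmp166[2xFLAG::csr-1])*, in which the tag marks both isoforms, L4 and adult) and CSR-1B (2xFLAG::csr-1b combined with the *cmp135* allele of *csr-1a*, which leaves the shorter isoform alone, L4 and adult), each with 2 IP and 2 input libraries. WAGO-1 is a germline Argonaute that binds another class of 22G-RNAs. The HA-tagged strains, all L4, were CSR-1A[15xAG] (*cmp165[2xHA::csr-1a]* with *cmp208[15xAG]*, in which arginine-glycine motifs of the first exon were changed to alanine-glycine), CSR-1A alg-3/4 (*csr-1a(cmp237[2xHA::csr-1a])* with *alg-3(tm1155)* and *alg-4(ok1041)*, lacking 2 further spermatogenesis Argonautes) and CSR-1A (*csr-1a(cmp165[2xHA::csr-1a])*). CSR-1A[15xAG] and CSR-1A alg-3/4 had 3 IP and 3 input libraries, and CSR-1A had 3 IP and 2 input libraries. Wild-type L4 larvae without a tag gave the control IPs, with 3 IP and 3 input libraries for FLAG and 3 IP and 2 usable input libraries for HA. The mRNA libraries were *csr-1a(cmp135)*, *csr-1a(cmp143)* and wild type, 3 L4 libraries each. The *cmp135* allele removes the start of the exon unique to CSR-1A, and *cmp143* removes this and promoter sequence upstream of it. Both isoforms share all other exons, so gene counts of *csr-1* cannot check the deletion itself. *csr-1* had 19, 15 and 17.2 fragments per kilobase of exon, scaled to the library's counts on genes (FPKM), in *cmp135* and 12.7, 15.7 and 12.3 FPKM in *cmp143*, against 39.4, 36.7 and 37.8 FPKM in wild type.

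The 50 small RNA libraries used held between 570862 and 17342341 counts on genes, with the lowest depth in CSR-1B L4 IP replicate 1, and the 9 mRNA libraries held between 16729691 and 21093818. No replicate pair among 46 was identical, and all differed by more than sampling noise. The labels number the replicates but do not say that they came from separate cultures, so p-values measure the spread between these libraries. The study calls the mRNA and the wild-type total small RNA replicates biological. For IP and input libraries the spread may be technical. In CSR-1A alg-3/4 inputs, small RNA counts on *alg-3* and *alg-4* were lower than in CSR-1A inputs, by log2 differences of -3.58 and -4.02. Small RNA values are reads on a gene scaled to 1000000 reads mapped to the genome (RPM). Enrichment is the log2 fold change of IP over input from the quasi-likelihood test of edgeR, adjusted over all genes tested by the Benjamini-Hochberg method, and a gene is called at an adjusted p of at most 0.05. It was computed after trimmed-mean scaling between libraries, which RPM do not carry, so ratios of RPM can differ from it.

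The members lie on 3 chromosomes of the WBcel235 assembly. *klp-7* (III, 10805930 to 10810999), *hcp-3* (III, 9615306 to 9616470) and *knl-1* (III, 8250636 to 8254286) are on chromosome III. *hcp-1* (V, 6594194 to 6599208), *knl-3* (V, 1869213 to 1870558) and *air-1* (V, 8221410 to 8223587) are on chromosome V, and *hcp-4*, *knl-2*, *bub-1* and *air-2* are on chromosome I. Counts were made over exons without regard to strand, so reads of a gene and of a partner on the opposite strand cannot be told apart where their exons overlap. Such overlap covered 11.2% of the exon bases of *knl-3*, 2.98% of *knl-2*, 2.66% of *hcp-3* and 0.407% of *hcp-1*, and none in the other 6.

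In wild-type L4 larvae all 10 genes had small RNA levels per exon length above the median of all genes with any count, 2.75 RPM per kilobase of exon (RPKM). In 2 wild-type libraries *klp-7* had the highest level, 94.6 ± 4.76 RPKM (mean ± SD, n = 2), next to *hcp-3* at 90.7 ± 4.32 RPKM, and the ranges of this pair overlapped. *knl-3* followed at 66.1 RPKM, and then *hcp-4* at 31.2 RPKM and *bub-1* at 30.7 RPKM, which also overlapped. *knl-1* had 23.6, *hcp-1* 18.7, *air-2* 15.8 and *air-1* 11.5 RPKM, and *knl-2*, the lowest, had 6.87 ± 0.255 RPKM. No other neighbours in this order overlapped. The order of mRNA levels differed from this. *air-1* was the highest at 41.8 FPKM (n = 3), *klp-7*, *bub-1* and *hcp-3* had 19.5, 17.6 and 17.2 FPKM, and the other 6 lay between 8.05 FPKM for *knl-2* and 12.2 FPKM for *knl-3*, all above the median gene at 3.85 FPKM. *air-1* was therefore the highest of the 10 by mRNA and, after *knl-2*, the lowest by small RNA. In whole worms, fewer cells of a type and less RNA per cell cannot be told apart.

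Reads as short as 22 bases can also match more than 1 gene. Of the 930 22-base words in *hcp-3* exons, 77 (8.28%) occurred elsewhere in the genome, all of them in *cpar-1*, which encodes a second CENP-A-like histone. In *hcp-1* 12 words (0.267%) and in *knl-1* 2 words (0.0619%) occurred elsewhere, and in the other 7 members none did. The 77 words of *hcp-3* lie in 6 stretches of 22 to 51 bases. The 3 longest that fit within 30 bases are shown, from the WBcel235 genome, since a 22G-RNA from any of them cannot be placed on *hcp-3* rather than *cpar-1*:
*hcp-3* III:9615968-9615997, minus strand, and *cpar-1* III:9434431-9434460, plus strand: aatcttgtcgattactcccacggccgtcat
*hcp-3* III:9616442-9616470, minus strand, and *cpar-1* III:9434057-9434085, plus strand: aggataatcttcgaacaatggccgatgac
*hcp-3* III:9615820-9615846, minus strand, and *cpar-1* III:9434600-9434626, plus strand: catcgagctccgatcgcgtgcggatga

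Small RNAs mapping to all 10 genes were enriched with CSR-1B in L4 larvae. The centromeric histone gene *hcp-3* stood highest, with 467 and 632 RPM in CSR-1B IPs, against 11.7 and 11.8 RPM in their inputs. Its log2 enrichment was 3.67 ± 0.19 (SE, adjusted p = 9.0e-11, edgeR). At the other end, *air-1* had 61.0 and 75.2 RPM in CSR-1B IPs, against 6.13 and 7.05 RPM in inputs, a log2 enrichment of 1.53 ± 0.22 (adjusted p = 6.9e-06). IP libraries lay above input libraries without overlap for all 10 genes, as they did for 49.4% of all genes, with 34.4% below. Of all 13287 genes tested, 32.4% were called higher and 54.2% lower in the CSR-1B IP. The median log2 enrichment was 2.31 over the 10 genes and -1.25 over all genes tested. With scaling by library size alone, the median of all genes moved by 1.08 and the share of calls that were higher moved to 49.6%, against 37.4% with trimmed-mean scaling, and all 10 members stayed called.

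Among the genes that build the kinetochore, *knl-2* had 144 and 93.8 RPM in CSR-1B L4 IPs, against 7.75 and 8.51 RPM in inputs. *hcp-4* had 382 and 437 RPM in IPs, against 21.4 and 24.5 RPM in inputs. The microtubule-binding genes were alike in size: *knl-1* had 439 and 566 RPM in IPs, against 25.8 and 27.9 RPM in inputs. For these 3 genes the IP libraries stood far above the input libraries, and for *knl-2* they differed most from each other. *knl-3* had 443 and 494 RPM in CSR-1B IPs, against 21.6 and 26.9 RPM in inputs. *bub-1*, the checkpoint kinase gene, had 439 and 603 RPM in IPs, against 22.9 and 25.1 RPM in inputs, with a log2 enrichment of 2.57 ± 0.18. *hcp-1* had 245 and 241 RPM in IPs, against 16.7 and 15.8 RPM in inputs. The spindle genes spanned the range. *klp-7*, the microtubule depolymerase gene, had the most reads of the 10, with 1026 and 1196 RPM in CSR-1B IPs, against 39.3 and 43.1 RPM in inputs (log2 enrichment 2.87 ± 0.17). *air-2* had 100.0 and 104 RPM in IPs, against 5.70 and 5.91 RPM in inputs.

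When both isoforms carried the tag, the same 10 genes were called. In CSR-1A+B L4 IPs *hcp-3* had 399 and 503 RPM, against 11.5 and 14.2 RPM in inputs (log2 enrichment 4.14 ± 0.19). *air-1* was again lowest, with 36.7 and 45 RPM in IPs, against 6.44 and 6.32 RPM in inputs (log2 enrichment 1.68 ± 0.19). Of 13094 genes tested, 39.1% were called higher and 39.1% lower, and all members were among the 58.5% of genes with IP libraries above input libraries, against 28.5% below. The median log2 enrichment was 3.07 over the 10 genes and -0.07 over all genes, which moved by 0.358 with scaling by library size alone. No member was called for a difference in L4 enrichment between CSR-1A+B and CSR-1B (edgeR, 0 called and 0 at an unadjusted p under 0.05, 0 by DESeq2, against 10.5% of all genes called higher and 0.679% called lower). The 95% interval of this difference, CSR-1A+B minus CSR-1B, ran for *hcp-3* between -0.75 and 0.52 and for *air-1* between -1.14 and 0.25. This count rested on CSR-1B L4 IP libraries of unequal depth: without replicate 2, 3 members were called higher, and without replicate 1, 3 were called lower.

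**Figure D1:**
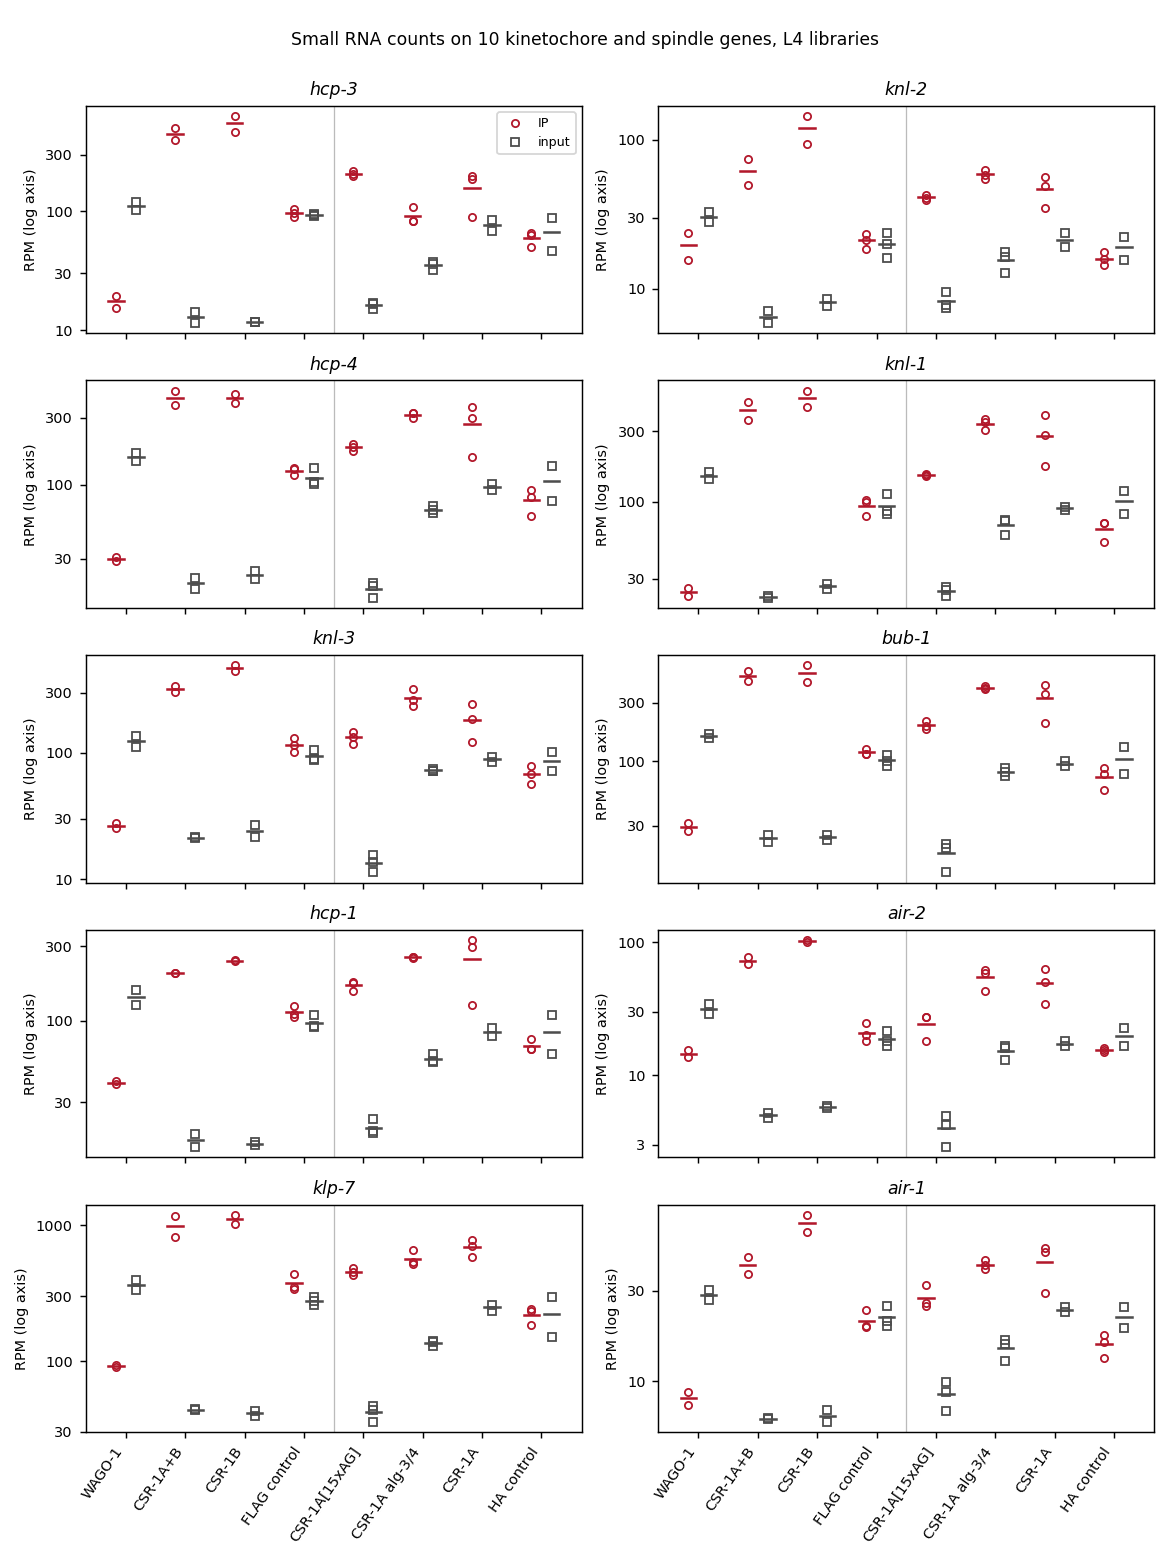
Small RNA counts on each gene in L4 larvae, in RPM on a log axis, for IP (circles) and input (squares) libraries of each strain, with horizontal bars at the group means; FLAG IPs are left of the vertical line and HA IPs right of it. CSR-1A+B and CSR-1B IPs lie above their inputs for every gene, WAGO-1 IPs lie below theirs, and in the FLAG and HA control groups IP and input lie close together.

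In the WAGO-1 IP the same genes were depleted. All 10 were called lower than input, against 44.1% of 13527 genes tested called lower and 42.1% higher. IP libraries lay below input libraries without overlap for all 10, as for 50.1% of all genes, with 42.7% above. *hcp-3* had 19.5 and 15.5 RPM in WAGO-1 IPs, against 119.6 and 103 RPM in inputs (log2 enrichment -2.51 ± 0.12, adjusted p = 2.7e-10). *knl-2* was the least depleted, with 23.7 and 15.6 RPM in IPs, against 32.7 and 28.3 RPM in inputs (-0.49 ± 0.14, adjusted p = 0.0050), and it was no longer called without WAGO-1 IP replicate 2 (adjusted p = 0.10). The difference in enrichment, WAGO-1 minus CSR-1B, was called lower for all 10 genes, against 35.6% of all genes, and ran between -6.42 ± 0.42 for *hcp-3* and -2.60 ± 0.36 for *knl-2*. Scaling by library size alone moved the median of this difference over all genes by -1.27, and 43.8% of its calls were then higher, against 55.9% with trimmed-mean scaling, with all 10 members still called lower. In the WAGO-1 IP itself that median moved by -0.565. The WAGO-1 strain also carried GFP::3xFLAG and *mut-16::mCherry*, and the CSR-1B strain carried 2xFLAG and the *cmp135* allele. Reads were counted with featureCounts 1.6.5 for WAGO-1 and 1.5.1 for CSR-1B. The Argonaute cannot be told apart from these features of the 2 strains. The inputs of these strains differed in level, with the 10 genes summing to 1200.1 to 1402 RPM in WAGO-1 inputs, against 179 to 197 RPM in CSR-1B inputs. Small RNAs on 8 germline marker genes summed to 835 to 945 RPM in WAGO-1 inputs, against 204 to 226 RPM in CSR-1B inputs, and on 9 oocyte marker genes to 315 to 360.3 RPM, against 54.8 to 54.9 RPM. Their part in the difference was not tested.

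The control IPs from L4 larvae without a tag gave the background of each antibody at that stage. In the FLAG control IPs *hcp-3* had 89.3, 97.5 and 105 RPM, against 92.0, 94.3 and 93.7 RPM in inputs, and in the HA control IPs it had 66.3, 50.5 and 63.3 RPM, against 88.5 and 46.7 RPM in inputs. In FLAG control libraries IP lay above input for *klp-7* and *bub-1*, as for 23.2% of all genes, with 7.51% below, and in HA control libraries IP lay below input for *knl-1*, *air-1* and *air-2*, as for 22.8%, with 23.3% above. No member was called in either control (edgeR, 0 called and 0 at an unadjusted p under 0.05, 0 by DESeq2). Of all genes, 8.14% were called higher and 3.89% lower in the FLAG control, and 1.53% higher and 0.419% lower in the HA control. In the HA control 58.6% of calls were higher with scaling by library size alone, against 78.5% with trimmed-mean scaling. The difference in enrichment between the CSR-1B IP and the FLAG control IP was called higher for all 10 genes, against 30.1% of all genes, between 2.09 ± 0.41 for *air-1* and 4.10 ± 0.41 for *hcp-3*. Both IP and input levels entered this difference. The CSR-1B strain also carried the *cmp135* allele, and the control did not. Reads were counted with featureCounts 1.5.1 for CSR-1B and 1.6.5 for the FLAG control. The tag cannot be told apart from these. *klp-7* had 1026 and 1196 RPM in CSR-1B IPs, against 354, 340.1 and 438 RPM in FLAG control IPs, and 39.3 and 43.1 RPM in CSR-1B inputs, against 297, 259 and 277 RPM in FLAG control inputs. The 10 genes summed to 179 to 197 RPM in CSR-1B inputs, against 875 to 1032 RPM in FLAG control inputs, and the part of the inputs was not tested. For this difference, 50.5% of calls were higher with scaling by library size alone, against 40.5%, and the median of all genes moved by 0.636.

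**Figure D2:**
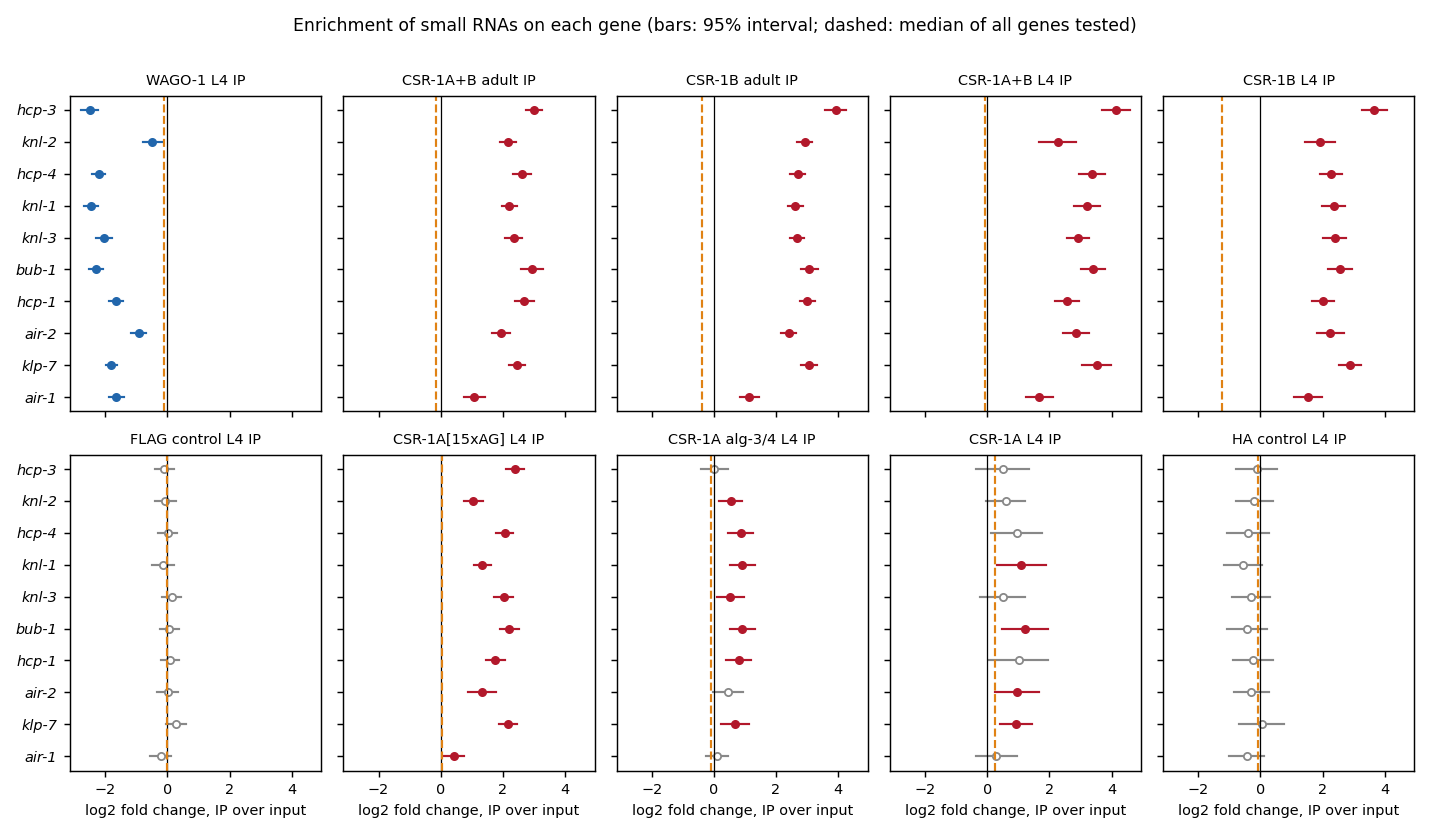
Log2 enrichment of IP over input for each of the 10 genes in each IP, with bars for the 95% interval; the dashed line marks the median over all genes tested. Every gene lies above that line for CSR-1A+B and CSR-1B at both stages and below it for WAGO-1, and the CSR-1A panel has the widest bars.

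With CSR-1A fewer of these genes were called. Of the 10, 4 were called higher in the CSR-1A L4 IP, against 20.8% of 13688 genes tested called higher and 13.7% lower. IP libraries lay above input libraries for all 10 members, as for 54.9% of all genes, with 10.2% below. *bub-1* had 417, 206 and 352 RPM in CSR-1A IPs, against 101 and 91 RPM in inputs (log2 enrichment 1.22 ± 0.32, adjusted p = 0.024). *knl-1* had 385, 175 and 284 RPM in IPs, against 92.6 and 87.8 RPM in inputs (1.10 ± 0.34, adjusted p = 0.041). The other called genes were *klp-7* (0.93 ± 0.22, adjusted p = 0.017) and *air-2* (0.96 ± 0.31, adjusted p = 0.045). For *air-2* the call was lost in a fit with the replicate number as a block (adjusted p = 0.11). That fit also left out CSR-1A IP replicate 1, which had no input of its number. Without this library and without the block, the adjusted p of *air-2* was 0.10 (edgeR). *hcp-3*, which led in the CSR-1B IP, had 198, 89.7 and 188 RPM in CSR-1A IPs, against 68.1 and 84.9 RPM in inputs (0.50 ± 0.37, adjusted p = 0.30), and *hcp-1* had 329, 126 and 295 RPM in IPs, against 79.7 and 90.4 RPM in inputs (1.01 ± 0.41, adjusted p = 0.089). IP replicate 2 was the lowest of the 3 CSR-1A IP libraries for every member.

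The count of 4 depended on single libraries. It was 7 without CSR-1A IP replicate 2, 2 without IP replicate 1, and 0 without IP replicate 3 or without either input replicate. Scaling by relative log expression moved the median of all genes by -0.226 and left 1 member called (*bub-1*), and 45.6% of all calls were then higher, against 60.3% with trimmed-mean scaling. The median log2 enrichment was 0.94 over the 10 genes and 0.25 over all genes, and all 10 members lay above the median of all genes. Set against the HA control IP, CSR-1A enrichment was called higher for 4 genes, *hcp-4*, *knl-1*, *bub-1* and *air-2*, against 19.5% of all genes. With the replicate block 2 of these stayed called (*hcp-4* adjusted p = 0.12 and *air-2* adjusted p = 0.051). The block also left out CSR-1A IP replicate 1 and HA control IP replicate 2, which had no usable input of their number. The count of 4 became 8 without CSR-1A IP replicate 2, 2 without IP replicate 1 or replicate 3, 1 without HA control input replicate 1, and 0 without CSR-1A input replicate 2. Of all calls for this difference, 64.5% were higher with scaling by library size alone, against 49.3%, and the median of all genes moved by 0.322.

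The difference in enrichment between the isoforms, CSR-1B minus CSR-1A, was called higher for 9 of the 10 genes, against 19.1% of all genes called higher and 37.6% lower. The 2 strains also differed in tag and antibody, FLAG against HA, and the CSR-1B strain carried the *cmp135* allele. Their reads were counted with featureCounts 1.5.1 for CSR-1B and 1.6.5 for CSR-1A. The isoform cannot be told apart from these differences. It was largest for *hcp-3*, at 3.55 ± 0.62 (adjusted p = 0.00049), followed by *klp-7* at 2.30 ± 0.48 and *knl-3* at 2.24 ± 0.55. For *hcp-1* it was 1.34 ± 0.59 (adjusted p = 0.063, and 0.018 with the replicate block). The block also left out CSR-1A IP replicate 1. In absolute levels the IPs were closer than the ratios: *klp-7* had 1026 and 1196 RPM in CSR-1B IPs, against 775, 588 and 710.1 RPM in CSR-1A IPs, while in inputs it had 39.3 and 43.1 RPM in CSR-1B, against 236 and 261 RPM in CSR-1A. The small RNA level of all 10 genes summed was 179 to 197 RPM in CSR-1B L4 inputs, against 830 to 860 RPM in CSR-1A inputs, so the input entered the ratio on a different level in each strain. Small RNAs on the germline marker genes summed to 204 to 226 RPM in CSR-1B inputs, against 634 to 734 RPM in CSR-1A inputs. Those on the oocyte marker genes summed to 54.8 to 54.9 RPM, against 231 to 251 RPM, and those on 14 sperm marker genes to 134 to 143 RPM, against 221 to 236 RPM. The part of the inputs in this difference was not tested. The call count was 3 without either CSR-1A input replicate or without either CSR-1B input replicate, and 5 without CSR-1B IP replicate 2. With scaling by library size alone, 50.1% of all calls were higher, against 33.7%, and the median of all genes moved by 0.529.

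In larvae without ALG-3 and ALG-4, 7 members were called higher in the CSR-1A IP, against 25.2% of 12436 genes called higher and 31.9% lower. *knl-1* had 304, 366 and 348 RPM in alg-3/4 IPs, against 59.7, 73.8 and 75.7 RPM in inputs (0.91 ± 0.19, adjusted p = 0.0016), and *bub-1* had 385, 396 and 412 RPM in IPs, against 75.3, 89 and 81.5 RPM in inputs (0.91 ± 0.18, adjusted p = 0.0016). *hcp-3* had 109, 82.2 and 83.6 RPM in IPs, against 37.5, 36.4 and 31.9 RPM in inputs, and after scaling its log2 enrichment was 0.00 ± 0.20. IP libraries lay above inputs for all 10 members, as they did for 67.3% of all genes, with 5.73% below. *air-2* (0.45 ± 0.22, adjusted p = 0.096) was called with the replicate block (adjusted p = 0.047), and 4 members were called without input replicate 2. The difference in enrichment, CSR-1A alg-3/4 minus CSR-1A, was called for no member (edgeR, 0 called and 0 at an unadjusted p under 0.05, 0 by DESeq2, against 2.04% of all genes called higher and 0.0490% lower). Its 95% intervals ran between -0.48 and 1.00 for *knl-1* and between -0.88 and 0.78 for *hcp-3*. The 10 genes summed to 546.4 to 582.4 RPM in alg-3/4 inputs, against 830 to 860 RPM in CSR-1A inputs. Scaling by library size alone moved the median of all genes in the alg-3/4 IP by 0.900, with 82.6% of calls higher, against 44.1%. In inputs, 1 member differed between CSR-1A alg-3/4 and CSR-1A, *hcp-3*, with a log2 fold change of -0.80 ± 0.20 (adjusted p = 0.020), against 18.2% of all genes called lower. It was not called without CSR-1A input replicate 3 or without alg-3/4 input replicate 2 or replicate 3, and without alg-3/4 input replicate 1 there were 2 calls. Of all calls between these inputs, 15.3% were higher with scaling by library size alone, against 38.7%, the median of all genes moved by -0.382, and 4 members were then called lower.

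When the arginine-glycine motifs of CSR-1A were changed, all 10 genes were called higher in the IP, against 37.1% of 13305 genes. *hcp-3* had 206, 197 and 218 RPM in CSR-1A[15xAG] IPs, against 17.1, 16.8 and 15.0 RPM in inputs (2.39 ± 0.13, adjusted p = 1.0e-08). *klp-7* had 431, 485 and 451 RPM in IPs, against 46.6, 43.6 and 35.6 RPM in inputs (2.17 ± 0.13). *air-1* was lowest again, with 25.9, 24.9 and 32 RPM in IPs, against 8.76, 9.95 and 6.97 RPM in inputs (0.42 ± 0.15, adjusted p = 0.023). The call of *air-1* was lost without input replicate 1 or without IP replicate 3. IP libraries lay above inputs for all 10 members, as for 64.6% of all genes, with 12.6% below. The median log2 enrichment was 1.90 over the 10 genes and 0.03 over all genes. Scaling by library size alone moved the median of all genes by 1.10, and 81.2% of calls were then higher, against 50.7%.

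The difference in enrichment, CSR-1A[15xAG] minus CSR-1A, was called higher for 5 genes, against 7.48% of all genes: *hcp-3* (2.11 ± 0.33, adjusted p = 0.00064), *knl-3* (1.75 ± 0.29), *klp-7* (1.44 ± 0.25), *hcp-4* (1.34 ± 0.31) and *bub-1* (1.21 ± 0.30). For *hcp-1* it was 0.99 ± 0.36 (adjusted p = 0.070, and 0.007 with the replicate block). The block also left out CSR-1A IP replicate 1. In the IPs alone, *klp-7* had 431 to 485 RPM in CSR-1A[15xAG], against 588 to 775 RPM in CSR-1A, and *hcp-3* had 197 to 218 RPM in CSR-1A[15xAG], against 89.7 to 198 RPM in CSR-1A. The inputs were lower, with the 10 genes summing to 149 to 188 RPM in CSR-1A[15xAG] inputs, against 830 to 860 RPM in CSR-1A inputs. Small RNAs on the 8 germline marker genes were lower as well, at 212 to 268 RPM summed in CSR-1A[15xAG] inputs, against 634 to 734 RPM in CSR-1A inputs, as were those on the 9 oocyte marker genes, at 65.9 to 71.1 RPM, against 231 to 251 RPM. Reads on 4 muscle marker genes went the other way, at 1374 to 1770.4 RPM in CSR-1A[15xAG] inputs, against 331 to 413 RPM in CSR-1A inputs. None of these marker genes was at 0 in all libraries of a group. Their part in the difference was not tested. With scaling by library size alone all 10 members were called, 83.9% of all calls were higher, against 39.2%, and the median of all genes moved by 0.839.

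A target rule was applied to each IP: at least 2-fold over input, adjusted p of at most 0.05, an average IP level of 10 RPM or more, and no pass of the same rule in the control IP of the same antibody. The series had no adult control IP, so the adult IPs were set against the L4 FLAG control. All 10 genes were targets of CSR-1A+B and of CSR-1B in both L4 larvae and adults, where the rule took 30.4% and 27.1% of all genes tested in L4 larvae and 24.9% and 29.3% in adults. In CSR-1A[15xAG] 9 members passed, against 19.5% of all genes, and *air-1* fell short with a 1.34-fold ratio after trimmed-mean scaling. Over all settings the log2 enrichment of *air-1* in this IP ran between 0.35 and 1.52. In CSR-1A 2 passed, *knl-1* (2.14-fold) and *bub-1* (2.34-fold), against 13.1% of all genes. Neither passed with the replicate block, which also left out CSR-1A IP replicate 1. The count was 0 without either CSR-1A input replicate or without CSR-1A IP replicate 3, and 1 without IP replicate 1. *air-2* (1.95-fold), *hcp-4* (1.93-fold) and *klp-7* (1.90-fold) lay just under the fold limit, and *hcp-1* (2.01-fold) passed it without reaching the adjusted p. No member passed in CSR-1A alg-3/4, against 13% of all genes, where *knl-1* (1.88-fold) and *bub-1* (1.88-fold) came nearest, and 2 passed without its IP replicate 1. The alg-3/4 count was 4 with DESeq2, 9 with library size alone, 3 without the filter and 1 with relative log expression. In the same order the CSR-1A count was 1, 5, 6 and 0, so these 2 IPs cannot be ranked by it. None passed in WAGO-1, against 16.9%.

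**Figure D3:**
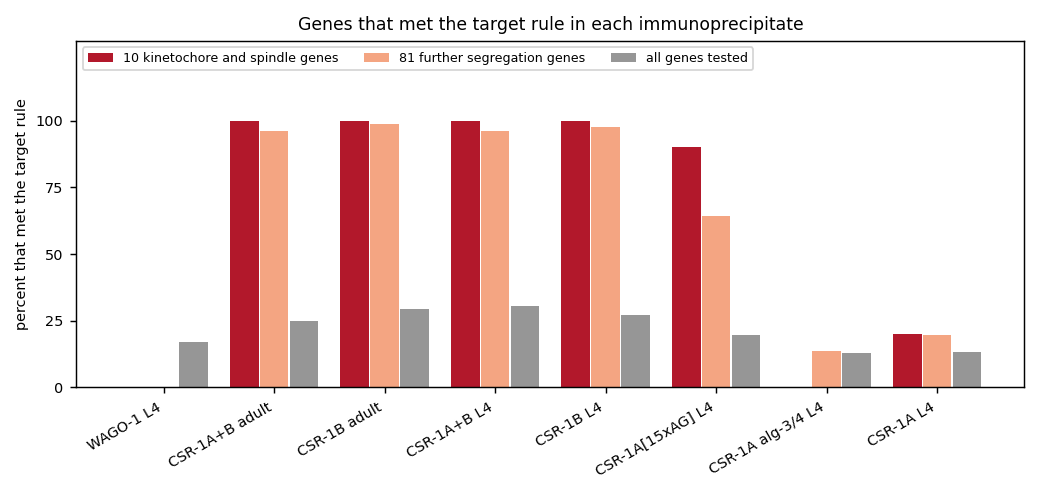
Percent of genes that met the target rule in each IP, for the 10 members, the wider list of 81 segregation genes and all genes tested. The members stand at 100% in the CSR-1A+B and CSR-1B IPs of both stages, at 90.0% in CSR-1A[15xAG], at 20.0% in CSR-1A and at 0% in CSR-1A alg-3/4 and WAGO-1. The CSR-1A and CSR-1A alg-3/4 shares changed with the test, the scaling and the filter.

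The wider segregation list was counted in the same way. In the CSR-1B L4 IP 80 of its 81 genes were called higher and 79 were targets, against 32.4% and 27.1% of all genes. Their median log2 enrichment was 2.30. The exception was *emb-27*, an anaphase-promoting complex gene (-0.17 ± 0.17, adjusted p = 0.34), named here after its value was seen. The highest were *mis-12*, another gene of the microtubule-binding network, with 76.6 and 98.6 RPM in CSR-1B IPs, against 1.88 and 2.85 RPM in inputs (3.39 ± 0.26), and *mdf-2*, the Mad2 checkpoint gene, with 61.0 and 91.5 RPM in IPs, against 2.03 and 2.35 RPM in inputs (3.32 ± 0.26). By role, all 15 kinetochore, 4 checkpoint, 3 passenger, 16 centrosome and spindle, 17 motor and midzone, and 14 condensin and cohesin genes were called higher, and 11 of 12 anaphase genes. In the WAGO-1 IP 74 of the 81 were called lower and 4 higher, namely *lis-1*, *emb-27*, *mei-1* and *sas-5*, named after their values were seen. Of all genes, 44.1% were called lower and 42.1% higher.

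In the CSR-1A IP 23 of the 81 were called higher and none lower, against 20.8% and 13.7% of all genes. Of the 81, 16 were targets, against 13.1% of all genes. Of the roles in this list the 15 kinetochore genes held 8 of the calls. The highest were *czw-1*, a gene of the Rod-Zwilch-ZW10 complex that recruits dynein to kinetochores, with 286, 169 and 266 RPM in CSR-1A IPs, against 41.7 and 35 RPM in inputs (2.11 ± 0.30, adjusted p = 0.0023), and *kbp-2*, which encodes a protein that binds KNL-1, with 25.3, 12.8 and 23.1 RPM in IPs, against 4.70 and 3.87 RPM in inputs (1.71 ± 0.35, adjusted p = 0.011). The rule that named these genes required every IP library to lie above every input library. In CSR-1A[15xAG] 71 of the 81 were called higher and 52 were targets, against 37.1% and 19.5% of all genes. In CSR-1A alg-3/4 36 were called higher and 3 lower, against 25.2% and 31.9% of all genes. Targets of CSR-1A alg-3/4 numbered 11 of the 81 (13.6%), close to the 13% of all genes. *cpar-1*, which shares stretches with *hcp-3*, was enriched with CSR-1B (2.75 ± 0.27) and not called with CSR-1A (-0.40 ± 0.28, adjusted p = 0.28).

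In 1-day-old adults the 10 genes were again all called higher in both IPs, against 36.1% of all genes called higher and 36.3% lower for CSR-1A+B, and 39.5% and 46.6% for CSR-1B. IP libraries lay above inputs for all 10, as for 47.8% of all genes in CSR-1A+B, with 37.1% below, and 45.1% in CSR-1B, with 47.2% below. The median of all genes moved by -0.15 in CSR-1A+B and -0.332 in CSR-1B with scaling by library size alone. *hcp-3* had 1491 and 1496 RPM in adult CSR-1A+B IPs, against 149.8 and 140.4 RPM in inputs (3.00 ± 0.11), and 2023 and 2745 RPM in adult CSR-1B IPs, against 121 and 141 RPM in inputs (3.92 ± 0.16). *klp-7* had 3312 and 3920.3 RPM in adult CSR-1B IPs, against 349 and 376 RPM in inputs (3.05 ± 0.12). *air-1* had 42.6 and 37.4 RPM in adult CSR-1B IPs, against 61.0 and 75.2 RPM in L4 CSR-1B IPs. With CSR-1A+B it had 42.9 and 39.5 RPM in adult IPs, against 36.7 and 45 RPM in L4 IPs, which overlapped. The other 9 genes were higher in every adult IP library than in every L4 IP library of the same strain. The share of all genes for which this held was not computed, so the count has no background. The adult enrichment of *air-1* was 1.13 ± 0.14 with CSR-1B and 1.08 ± 0.14 with CSR-1A+B, the lowest of the 10 in both.

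**Figure D4:**
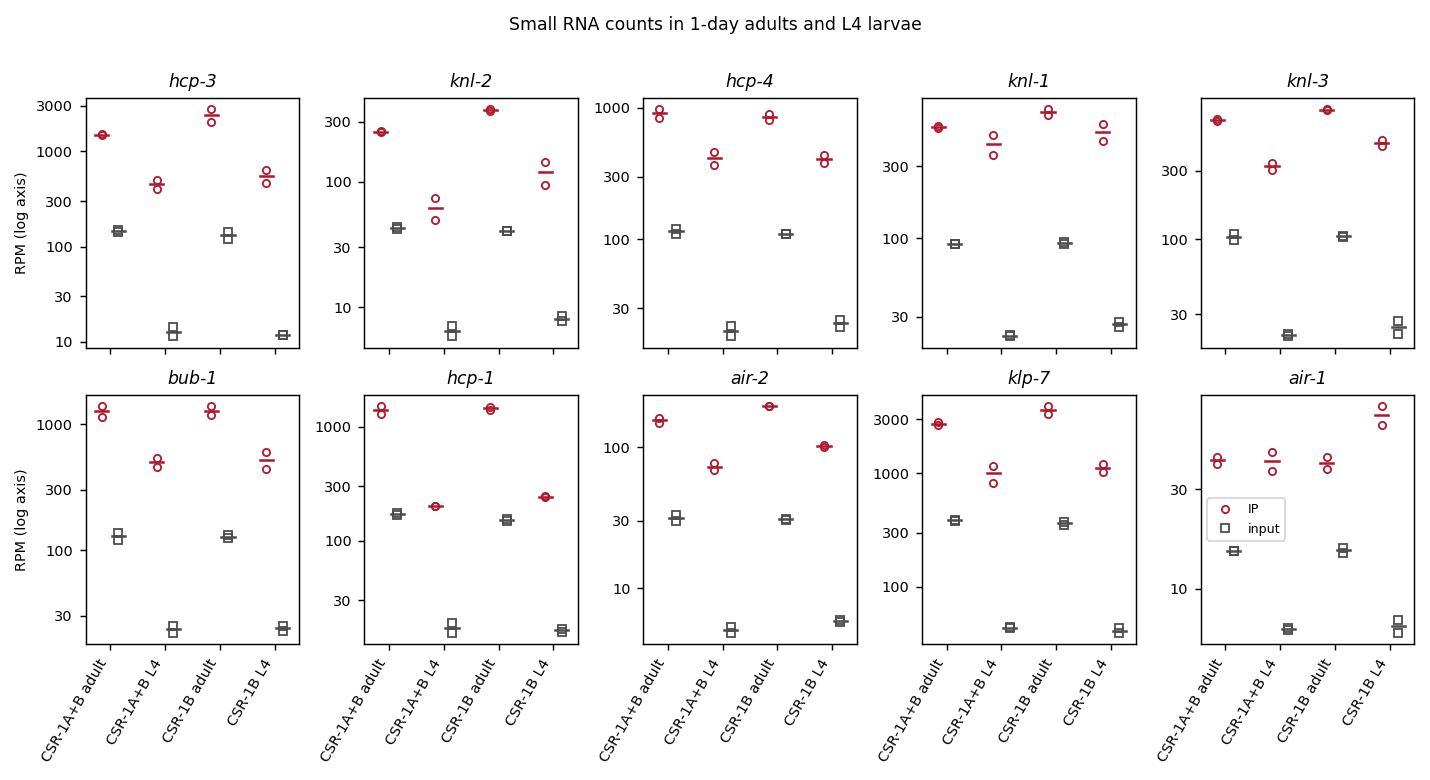
Small RNA counts on each gene in adult and L4 libraries of the CSR-1A+B and CSR-1B strains, in RPM on a log axis, with circles for IP, squares for input and horizontal bars at the group means. Adult IPs are higher than L4 IPs for 9 genes, a count not set against all genes. The adult CSR-1B IPs of *air-1*, at 42.6 and 37.4 RPM, lie below its L4 IPs, at 61.0 and 75.2 RPM.

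Within the CSR-1A+B and CSR-1B strains, input levels of most members were higher in adults than in L4 larvae. In CSR-1A+B 10 of 10 genes were called higher in adult than in L4 inputs, against 41.8% of all genes, and in CSR-1B 9 of 10, against 38.2%. *hcp-1* had 174 and 168 RPM in adult CSR-1A+B inputs, against 15.4 and 18.9 RPM in L4 inputs (log2 fold change 2.65 ± 0.10). *air-1* had 15.2 and 15.1 RPM in adult CSR-1A+B inputs, against 6.44 and 6.32 RPM in L4 inputs (0.56 ± 0.13), and it was the gene not called in CSR-1B (0.28 ± 0.13, adjusted p = 0.069). In CSR-1B, 66.1% of calls were higher with scaling by library size alone, against 49.4%, and the median of all genes moved by 0.554, and by 0.348 in CSR-1A+B. The 10 genes summed to 1135 to 1262 RPM over the adult inputs of both strains, against 172 to 197 RPM over their L4 inputs. Inputs of other L4 groups reached the adult level or came near it, with 1200.1 to 1402 RPM in WAGO-1, 875 to 1032 RPM in the FLAG control and 830 to 860 RPM in CSR-1A, so a higher adult level was measured within these 2 strains and not over L4 inputs in general. Small RNAs on the 9 oocyte marker genes summed to 452 to 491 RPM in adult CSR-1B inputs, against 54.8 to 54.9 RPM in L4 CSR-1B inputs, and their part in the change was not tested. Between CSR-1B and CSR-1A+B L4 inputs no member was called (edgeR, 0 called, 3 higher at an unadjusted p under 0.05, 0 by DESeq2, against 2.18% of all genes called higher and 4.27% lower).

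The enrichment itself changed less with stage. Adult minus L4, it was called lower in CSR-1A+B for 4 genes, against 13.4% of all genes: *hcp-3* (-0.92 ± 0.21, adjusted p = 0.0091), *klp-7* (-0.84 ± 0.23), *knl-1* (-0.78 ± 0.22) and *air-2* (-0.70 ± 0.21, adjusted p = 0.032, and 0.053 with the replicate block). The count was 1 without either adult input replicate, and 7 and 8 without L4 input replicate 1 and replicate 2. In CSR-1B no member was called (edgeR, 0 called and 0 at an unadjusted p under 0.05, 1 lower by DESeq2, against 14.4% of all genes called higher and 5.36% lower). Without CSR-1B L4 IP replicate 1, the shallowest library, 6 members were called lower and 1 higher, and without L4 IP replicate 2, 5 were called higher. Without either L4 input replicate 1 was called lower. The direction for all genes depended on the scaling. Of all calls in CSR-1A+B, 53.7% were higher with trimmed-mean scaling, 25.1% with relative log expression and 9.99% with library size alone, and in CSR-1B 72.9%, 48.3% and 20.1%. The median of all genes moved by -0.381 and -0.733 in CSR-1A+B and by -0.180 and -0.758 in CSR-1B.

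In the mRNA libraries no member was called higher in either mutant (edgeR, 0 called and 0 at an unadjusted p under 0.05, 0 by DESeq2). Of all genes, 18.0% were called higher in *cmp135* and 15.5% in *cmp143*. In *csr-1a(cmp135)* 3 members were called lower, against 14.8% of 14419 genes. *knl-1* had 6.37, 6.24 and 5.02 FPKM in *cmp135*, against 10.5, 9.41 and 9.34 FPKM in wild type (log2 fold change -0.61 ± 0.12, adjusted p = 0.0036, edgeR). *bub-1* had 13.5, 11.1 and 9.83 FPKM in *cmp135*, against 18.9, 17.1 and 16.7 FPKM in wild type (-0.49 ± 0.11, adjusted p = 0.0073). Neither overlapped wild type, as for 34.5% of all genes with the mutant below wild type. Both were called whichever library was left out. *knl-2* had 6.39, 4.59 and 5.74 FPKM in *cmp135*, against 8.41, 7.73 and 8.01 FPKM in wild type (-0.41 ± 0.12, adjusted p = 0.023), and was not called without any 1 wild-type replicate or without *cmp135* replicate 2 or replicate 3. *hcp-3*, with 19.6, 15.5 and 12.9 FPKM in *cmp135*, against 17.1, 16.4 and 18.2 FPKM in wild type, overlapped (0.02 ± 0.17, 95% interval -0.37 to 0.40).

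In *csr-1a(cmp143)* 2 members were called lower, against 10.8% of all genes. *bub-1* had 12.3, 12.7 and 12.7 FPKM in *cmp143*, against 18.9, 17.1 and 16.7 FPKM in wild type (-0.34 ± 0.11, adjusted p = 0.048). *air-1* had 28.9, 26.8 and 34.7 FPKM in *cmp143*, against 45.2, 37.1 and 43.2 FPKM in wild type (-0.33 ± 0.10, adjusted p = 0.035). Libraries did not overlap in either gene, as for 31% of all genes with the mutant below wild type. *knl-1* had 6.66, 6.2 and 8.25 FPKM in *cmp143* and did not pass (-0.33 ± 0.12, adjusted p = 0.070). The count was 0 without wild-type replicate 1 or replicate 3 or *cmp143* replicate 1 or replicate 2, and 1 without wild-type replicate 2, and *bub-1* lost its call whichever of the 6 libraries was left out. Both mutants were compared with the same wild-type libraries.

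**Figure D5:**
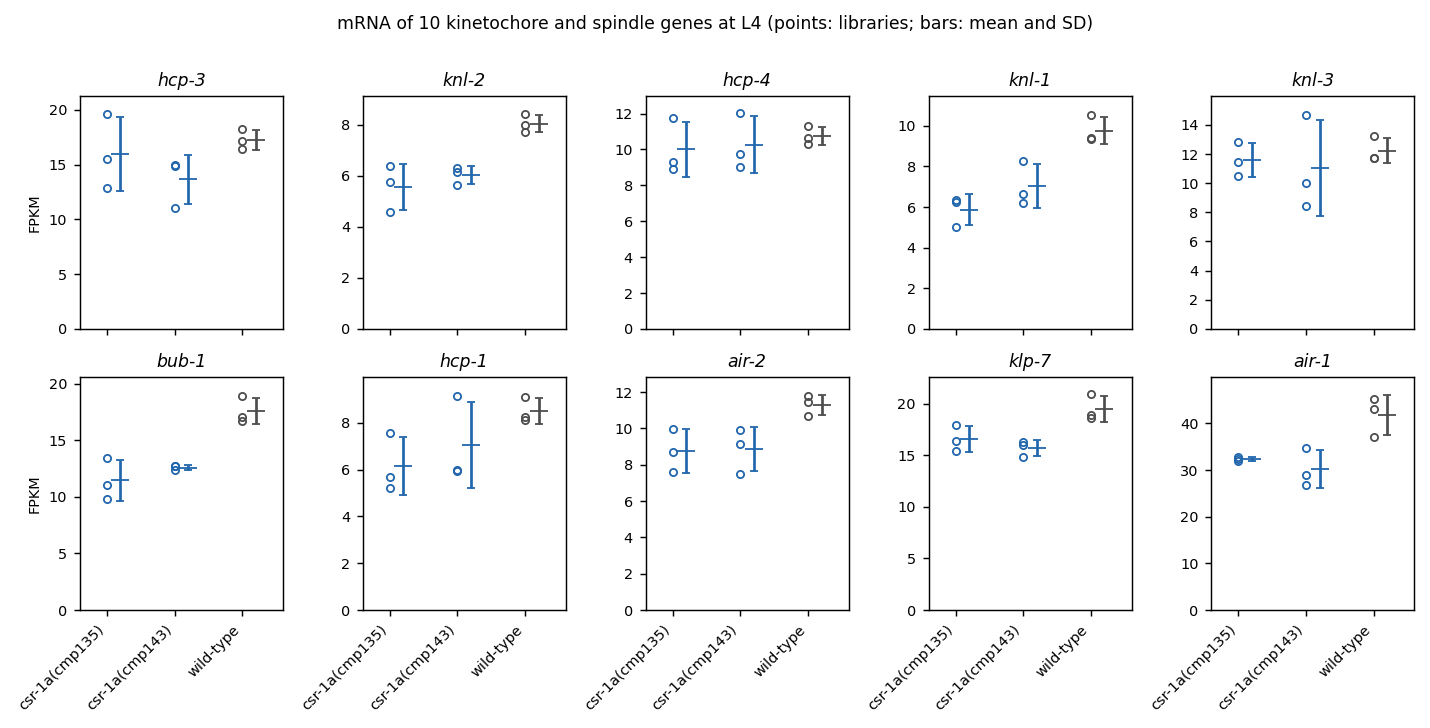
mRNA levels of each gene in FPKM in *csr-1a(cmp135)*, *csr-1a(cmp143)* and wild-type L4 larvae, with points for the 3 libraries of each group and bars for the mean and SD. *knl-1* and *bub-1* in *cmp135* lie below wild type without overlap, as do 34.5% of all genes, and *hcp-3* in *cmp135* overlaps it.

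Transcripts of marker genes of other cell types were summed in the same libraries. The 9 oocyte marker genes summed to 77.8 to 139 FPKM in *cmp135* and 31.4 to 102 FPKM in *cmp143*, against 21.4 to 21.9 FPKM in wild type. The 4 intestine marker genes summed to 790.4 to 922 FPKM in *cmp135* and 640.4 to 936 FPKM in *cmp143*, against 326 to 370.5 FPKM in wild type. The 14 sperm marker genes summed to 522 to 686 FPKM in *cmp135* and 251 to 572 FPKM in *cmp143*, against 637 to 765 FPKM in wild type. Both mutants lay above wild type for the oocyte and intestine genes, while for the sperm genes *cmp135* overlapped wild type and *cmp143* lay below it. No marker gene of these 3 lists was at 0 in all libraries of an mRNA group, and their part in the changes above was not tested. With scaling by library size alone, 39.3% of all calls were higher in each mutant, against 54.8% in *cmp135* and 59.0% in *cmp143* with trimmed-mean scaling, and the median of all genes moved by -0.122 and -0.139.

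Of the 81 wider segregation genes, 32 were called lower and 4 higher in *cmp135*, against 14.8% and 18.0% of all genes. In *cmp143*, 12 were called lower and 1 higher, against 10.8% and 15.5% of all genes. Their median log2 fold change was -0.23 in *cmp135* and -0.22 in *cmp143*, against a median of all genes of -0.01 and -0.02. In *cmp135* the condensin and cohesin genes held 9 of 14 and the centrosome and spindle genes 9 of 16 among the lower calls. The genes with the largest falls were *gpr-1* (-0.88 ± 0.19) and *gpr-2* (-0.78 ± 0.16), whose products position the spindle and are near-identical copies, so that reads may be shared between them. The highest were *mei-2*, a katanin subunit gene of the meiotic spindle, with 14.3, 8.58 and 7.68 FPKM in *cmp135*, against 4.94, 5.27 and 5.17 FPKM in wild type (1.11 ± 0.38, adjusted p = 0.046), and *cpar-1* (0.93 ± 0.33, adjusted p = 0.0495). In *cmp143*, *bmk-1*, the kinesin-5 gene, had 7.68, 7.94 and 7.13 FPKM, against 12.3, 11.8 and 13.3 FPKM in wild type (-0.58 ± 0.10, adjusted p = 0.0017), *spdl-1*, the Spindly gene, fell by 0.53 on the log2 scale, and *spd-5*, a scaffold gene of the pericentriolar material, was the 1 called higher (0.35 ± 0.09, adjusted p = 0.019).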

How the data were processed

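Small RNA and mRNA libraries of whole worms were analysed from the deposited gene tables. The expected counts of small RNAs were made by the authors with Bowtie2 2.2.2 on genome WS258 and featureCounts (1.5.1 or 1.6.5 in the file headers) with fractional assignment of reads that overlap several genes, and were rounded here. The mRNA counts were made by the authors with Trimmomatic 0.36, HISAT2 2.1.0 and featureCounts 2.0.0. The 10 members, the wider lists and the tests were chosen with earlier results of these data known. RPM used the study's totals of reads mapped to the genome, and FPKM the counts on genes. Tests used edgeR 4.0.16 in R 4.3.3 (filterByExpr, trimmed-mean scaling, quasi-likelihood fit) and were run on simulated data in which few genes changed, equally up and down. Such data cannot check the scaling in IPs where many genes change. SE is the size of the log2 fold change over the square root of F, and 95% intervals take the t quantile for the fit's degrees of freedom. IP and input were paired by replicate number where blocked, because input was taken from the lysate before its IP. Blocked fits left out libraries without a partner, namely CSR-1A IP replicate 1 and HA control IP replicate 2. Between CSR-1A alg-3/4 and CSR-1A inputs, alg-3/4 input replicate 1 was left out. Correlations of paired deviations ran between -0.0758 and 0.467. One HA control input table held only part of the genes and was left out. Wider genes were named where their change was 1 of the 2 largest each way among called genes with libraries that did not overlap. Alternatives were DESeq2 1.42.0, other scalings, no filter, the block and leaving out each library.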

Additional observations from a re-analysis of the deposited data

Results flagged for a closer look

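Differences in enrichment between strains or stages passed the test of the difference itself for 28 results, all log2 differences from edgeR's quasi-likelihood test. For CSR-1B minus CSR-1A in L4 larvae 9 genes passed: *hcp-3* 3.55, *klp-7* 2.30, *knl-3* 2.24, *bub-1* 1.73, *hcp-4* 1.69, *knl-2* 1.64, *air-2* 1.64, *knl-1* 1.63 and *air-1* 1.59. For CSR-1A[15xAG] minus CSR-1A 5 passed: *hcp-3* 2.11, *knl-3* 1.75, *klp-7* 1.44, *hcp-4* 1.34 and *bub-1* 1.21. *hcp-3* led both of these comparisons, which share the CSR-1A libraries.

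For WAGO-1 minus CSR-1B all 10 passed, with *hcp-3* at -6.42, *bub-1* at -5.12, *knl-1* at -5.05, *klp-7* at -4.91, *hcp-4* at -4.72, *knl-3* at -4.67, *hcp-1* at -3.88, *air-2* at -3.43, *air-1* at -3.42 and *knl-2* at -2.60. For adult minus L4 in CSR-1A+B 4 passed, with *hcp-3* at -0.92, *klp-7* at -0.84, *knl-1* at -0.78 and *air-2* at -0.70.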

How the results depend on the processing

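Of 2870 recomputed values of single genes, 2654 kept their direction and side of the threshold, 101 lost a call, 112 gained 1 and 3 reversed. The reversals were *hcp-4* (0.59), *knl-1* (0.53) and *bub-1* (0.83) in CSR-1B adult minus L4 without CSR-1B L4 IP replicate 2, set against -0.43, -0.66 and -0.45 without replicate 1. Of counts of members, relative log expression scaling left 1 called in the CSR-1A IP and gave 3 (CSR-1B) and 7 (CSR-1A+B) lower in adult minus L4. Library size alone gave 10 for CSR-1A[15xAG] minus CSR-1A, 8 and 8 lower in adult minus L4, 4 lower in CSR-1A alg-3/4 input and 5 lower in *cmp143*. Without the filter there were 7 (CSR-1B) and 8 (CSR-1A+B) lower in adult minus L4, 1 higher in CSR-1B over CSR-1A+B input and 1 lower in *cmp143*. DESeq2 gave 1 lower in CSR-1B adult minus L4, and a fit of *cmp143* and wild type alone gave 1. CSR-1A targets numbered 1 (DESeq2), 0 (relative log expression), 5 (library size) and 6 (no filter), and CSR-1A alg-3/4 targets 4, 1, 9 and 3. The cause was not tested.

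With the replicate block, calls became 2 in CSR-1A minus HA control, 2 lower in CSR-1A alg-3/4 input, 1 in CSR-1B over CSR-1A+B input, 1 lower in *cmp143* and 0 CSR-1A targets. Blocked fits with CSR-1A IPs lacked IP replicate 1, and those with the HA control lacked its IP replicate 2. The alg-3/4 input comparison lacked alg-3/4 input replicate 1, so block and lost library cannot be told apart in these fits. Inputs of different strains and mRNA libraries share only a number, where *bub-1* lost its call in *cmp143* (adjusted p = 0.059). The block moved no other count of members by more than 1.5 times.

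Leaving out 1 library gave counts between 0 and 7 for CSR-1A, 4 and 7 for alg-3/4, 3 and 10 for CSR-1B minus CSR-1A, 0 and 8 for CSR-1A minus HA control, 0 and 5 higher and 0 and 6 lower for CSR-1B adult minus L4, 1 and 8 lower for CSR-1A+B adult minus L4, 0 and 3 either way for CSR-1A+B minus CSR-1B, 0 and 2 lower for alg-3/4 input and *cmp143*, and 0 and 2 for CSR-1A and alg-3/4 targets. Mapped-fragment totals for mRNA were not run. The lowest count of a member was 29, for *air-2* in a CSR-1A[15xAG] input.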
